A study of Mus musculus with 2 samples.

Results

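The uroplakin genes Upk1a, Upk1b, Upk2, Upk3a and Upk3b encode the membrane proteins of the urothelial plaque. They were taken by symbol and are 5 of the 21938 protein-coding genes of the GENCODE M21 annotation. For each gene, open chromatin was read within 500 bp of its annotated transcription start sites (TSSs). It was also read in all regions within 100 kb that have the gene as their nearest protein-coding gene. Open chromatin was measured by DNase-seq, in which DNase I cuts accessible DNA in nuclei and the released ends are sequenced. The tissue was whole urinary bladder of female B6CASTF1/J mice aged 4 days, untreated as far as the labels state. These mice are F1 hybrids of C57BL/6J and CAST/EiJ. The labels give a single group with 2 biological replicates, each from a female with its own number, though one donor identifier covers both. The design therefore holds no contrast, no test between groups was possible, and the spread between replicates may be partly technical.

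Uroplakins cover the bladder lumen. In the umbrella cells, the outermost urothelial layer, they assemble into rigid plaques known as the asymmetric unit membrane, which help to keep the barrier to urine. Upk1a and Upk1b are tetraspanins, proteins that cross the membrane repeatedly. Each leaves the endoplasmic reticulum with a single-pass partner: Upk1a pairs with Upk2, and Upk1b pairs with Upk3a or with Upk3b. Upk1b and Upk3b are also known from mesothelium, the lining of the body cavities.

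Peak height, the signal that the authors deposited, is a whole multiple of a step of 0.00466 in replicate 1 and 0.00417 in replicate 2 (100% of peaks, tolerance 0.02 steps). The steps put replicate 2 at 1.12 times the depth of replicate 1, provided a common scaling was applied. Total read depth is unknown. The looser of the 2 deposited peak lists held 96518 and 122870 peaks with median heights of 0.512 and 0.321. Overlapping peaks of the replicates formed 53490 shared regions, whose heights had a median log2 ratio, taken as replicate 2 over 1 throughout, of -0.28 (SD 0.40 over regions). Poisson intervals given below are exact 95% intervals from the number of steps and cover counting error only. They take each step as 1 count, which the labels do not state. They also compare raw heights, so the general shift between replicates is left in. In whole tissue, fewer cells of a type and less openness per cell cannot be told apart.

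Promoters of the uroplakin genes were low or had no peak, and the tallest open regions at 4 of the 5 genes lay elsewhere. A promoter peak, overlapping the 500 bp on either side of a TSS, was called in both replicates at 2 of the 5 genes, Upk1b and Upk3a. The background was 62.3% of all protein-coding genes. Replicate 1 alone had 3 such genes, against a background of 65.4%, and replicate 2 had 2, against 64.7%. With a window of 1000 bp the count was 4, all but Upk3b, against 63.7%. In the stricter lists it was 0, against 55%. Each of the 5 genes had at least 1 shared region of some kind, where 72.5% of all genes had one.

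Among the tetraspanins, Upk1a had no peak within 500 bp of its TSS in either replicate. Upk1b had a promoter peak of 0.955 in replicate 1 (Poisson interval 0.828 to 1.09) and 0.534 in replicate 2 (0.445 to 0.635), a mean of 0.744 ± 0.298 (SD, n = 2). The replicates stood apart by more than their counting error. The peak was taller than 19.6% of all promoter peaks in replicate 1 and 9.97% in replicate 2, so it was among the lower ones in both.

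Among the single-pass partners, Upk3a had a promoter peak of 0.922 in replicate 1 (0.798 to 1.06) and 0.525 in replicate 2 (0.438 to 0.625), a mean of 0.724 ± 0.280 (SD, n = 2). It was taller than 18.8% and 9.52% of promoter peaks. Upk1b and Upk3a had promoter peaks of nearly the same height in each replicate, and their Poisson intervals overlapped. Upk2 had a promoter peak of 0.806 in replicate 1 (0.690 to 0.935) and none in replicate 2. Its interval in replicate 1 overlapped those of Upk1b and Upk3a, so the likeness was not particular to these partners. Upk3b had no promoter peak in either replicate. The median over all promoter peaks was 2.44 in replicate 1 and 1.80 in replicate 2, above every uroplakin promoter.

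**Figure D1:**
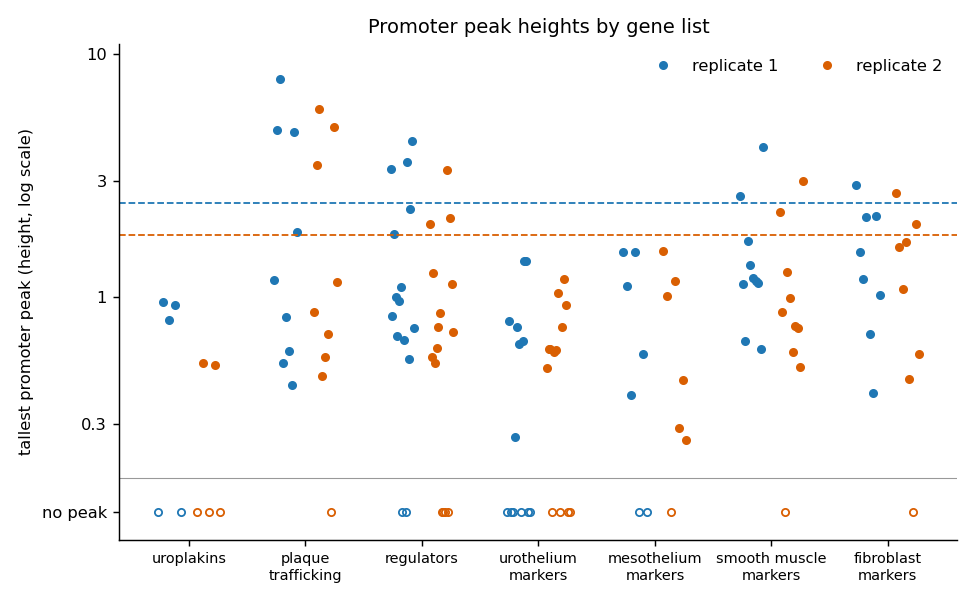
Height of the tallest promoter peak (deposited signal, log axis) of each gene in 7 lists, by replicate; points are genes, open circles are genes with no peak, and dashed lines are the medians over all promoter peaks. The uroplakin points lie below the medians of 2.44 (replicate 1) and 1.80 (replicate 2).

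The missing calls were looked at further in the deposited false discovery rates, which list stretches of bases at rates up to 0.05. No base within 500 bp of the TSS of Upk1a or Upk3b was listed in either replicate. At Upk2, 429 bases were listed in replicate 1, with a lowest rate of 9.29e-06, and 33 bases in replicate 2, with a lowest rate of 0.0301. Bases in the Upk2 promoter window were thus listed in both replicates, but a peak was called there in replicate 1 alone. Where in the window the listed bases lay was not read. Upk1b had 287 and 217 listed bases, with lowest rates of 2.67e-06 and 0.000892. Upk3a had 195 and 97, with lowest rates of 0.000677 and 0.0116. A listed stretch in both replicates was therefore found at 3 of the 5 genes, against 63.3% of all genes. Among genes with no promoter peak in either replicate, the group that holds Upk1a and Upk3b, 0.312% had listed stretches in both.

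Both shared uroplakin promoters were lower in replicate 2 by more than most promoters. The log2 ratio was -0.84 at Upk1b and -0.81 at Upk3a, where all genes with promoter peaks in both had a median of -0.41 (SD 0.27 over genes). Only 3.81% and 4.69% of those genes had a lower ratio. Both peaks were among the lower ones, and promoters of like height were not compared. Among genes with promoter peaks in both replicates, 4 of 4 mesothelium and 5 of 7 fibroblast markers had ratios above that median. Smooth muscle markers had 3 above and 6 below, and the plaque trafficking genes 3 above and 5 below. Of the 7 urothelium markers with promoter peaks in both replicates, 6 had ratios above that median and 1 below. As in the mesothelium and fibroblast lists, most of them thus lay on the other side of that median from Upk1b and Upk3a. The ratios were 1.16 at Krt17, 0.70 at Krt19, 0.19 at Epcam, -0.25 at Cdh1, -0.32 at Krt18, -0.39 at Krt7 and -0.61 at Cldn4. These are keratins of the urothelial layers, the epithelial adhesion genes Epcam and Cdh1, and the tight-junction gene Cldn4. Krt5 and Krt8, keratins of basal and of simple epithelia, had peaks in replicate 2 only (0.509 and 0.613). Of the 11 regulators with peaks in both, 6 lay above that median and 5 below. Those above were Tfap2a (-0.06), Irf1 (-0.11), Rara (-0.13), Grhl3 (-0.16), Grhl2 (-0.35) and Elf3 (-0.36). Those below were Rarg (-1.95), Gata3 (-0.90), Klf5 (-0.76), Pparg (-0.56) and Rxra (-0.53). Genes in these sentences beyond Krt19, Cdh1, Cldn4, Irf1, Rarg and Klf5 were named after their values were seen. Whether the share of urothelial cells differed between the replicates was not tested.

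**Figure D2:**
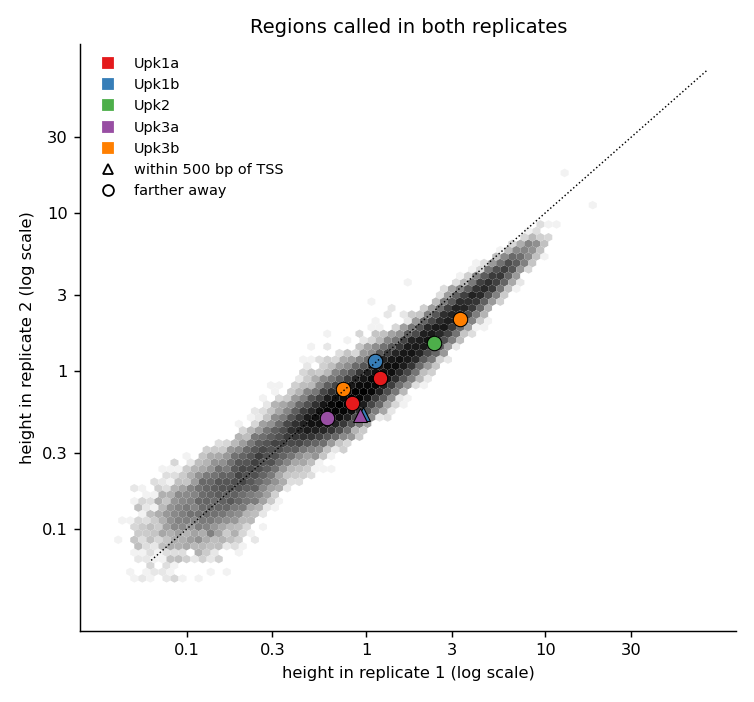
Heights in replicate 1 and replicate 2 (deposited signal, log axes) of shared regions, in grey by density, with the uroplakin regions in colour and a dotted line at equal heights. The markers of the Upk1b and Upk3a promoters lie nearly on top of each other. Of the 9 uroplakin regions, 7 are lower in replicate 2, as are most shared regions (median log2 ratio -0.28). The other 2 have higher ratios than 78.0% and 77.6% of all shared regions.

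The start sites of the uroplakin genes were poor in CpG, the dinucleotide that marks the broadly open promoters of many housekeeping genes. Within 250 bp of the TSS, the ratio of observed to expected CpG was 0.109 at Upk1a, 0.314 at Upk1b, 0.132 at Upk2, 0.478 at Upk3a and 0.0907 at Upk3b. The median over 21853 genes was 0.611, so all 5 lay below it. GC content was 54.3% at Upk1a, 55.5% at Upk1b, 57.1% at Upk2, 56.3% at Upk3a and 60.1% at Upk3b, around the median of 57.9%. The genes with promoter peaks in both replicates, Upk3a and Upk1b, were the 2 with the highest CpG ratios among the members.

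The members' calls can be read beside genes of like CpG content. Genes were split into deciles by this ratio, where the first has the lowest. Upk3b lay in the first, in which both replicates had a promoter peak at 6.18% of genes. Upk1a and Upk2 lay in the second, with 12.4%. Upk1b lay in the fourth, with 39.9%, and Upk3a in the fifth, with 72.7%. In the highest decile the share was 96.2%. The share of genes whose tallest shared region lay outside the promoter window went the other way, from 83.0% in the first decile to 78.4% in the second, 56.8% in the fourth, 34.4% in the fifth and 14.9% in the highest. This split was chosen after the promoter calls had been seen.

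**Figure D3:**
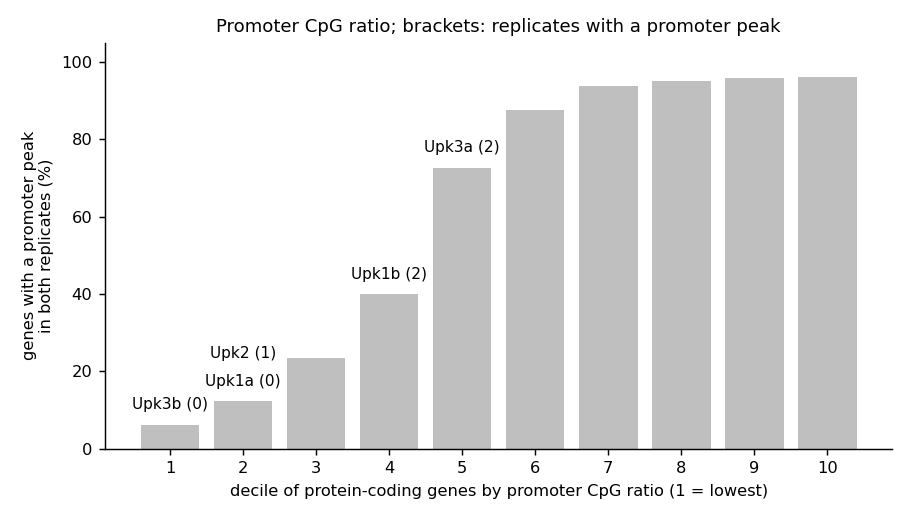
Share of genes (percent, bars) with promoter peaks in both replicates, by decile of the observed over expected CpG ratio around the TSS, with each uroplakin gene named above its decile and, in brackets, the number of replicates in which its promoter had a peak. The bars rise from 6.18% to 96.2%, and the uroplakin genes sit in deciles 1, 2, 4 and 5.

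Promoter sequence was read for Upk3a, which had a peak, and for Upk3b, which had none. The RefSeq table (GRCm38.p6) held 3 of the 5 members, Upk1a, Upk3a and Upk3b. The 250 bases before the RefSeq start are given 5′ to 3′ on the strand of the gene, as the C57BL/6J reference has them, with capitals for motif matches. They lie at chr15:85016891-85017140 (+) for Upk3a and chr5:136038246-136038495 (+) for Upk3b, build GRCm38.
Upk3a promoter: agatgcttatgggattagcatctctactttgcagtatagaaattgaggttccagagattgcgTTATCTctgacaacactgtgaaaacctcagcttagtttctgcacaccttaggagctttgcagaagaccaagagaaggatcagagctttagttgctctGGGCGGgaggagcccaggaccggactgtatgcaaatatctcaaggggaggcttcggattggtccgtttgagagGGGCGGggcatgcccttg
Upk3b promoter: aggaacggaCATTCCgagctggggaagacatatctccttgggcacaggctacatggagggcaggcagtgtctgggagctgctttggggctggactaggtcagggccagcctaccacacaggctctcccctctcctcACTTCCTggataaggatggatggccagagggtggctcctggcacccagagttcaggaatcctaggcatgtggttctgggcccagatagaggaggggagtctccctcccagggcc

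The Upk3a sequence holds GGGCGG, the SP and KLF motif, starting at -91 and -18 from the TSS, and the GATA motif AGATAA on the other strand at -188. Footprints are short stretches that the authors' files list as protected from cutting inside open chromatin. Of the 6 bases of the match at -18, 6 lay in footprints of replicate 1 and 2 in those of replicate 2. The Upk3b sequence holds the TEAD motif GGAATG at -241 and the ETS motif AGGAAGT at -114, both on the other strand. Of 32851 RefSeq promoters of 300 bases, 35.7% hold GGGCGG, 11.2% AGATAA, 14.7% GGAATG and 9.35% AGGAAGT on either strand, so such matches are frequent. The Upk1a window held no match. Searched on both strands without a match in these promoters were AP-1 (TGANTCA), KLF (GGGTGTGG), GRHL (AACCNGTT), FOX (TGTTTAC), the TATA box (TATAAA), and the DR1, p53, SRF, NFI and CTCF consensus sequences. None of the short motifs contains another. No match says only that these letters are not in the window.

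Away from the promoter windows, the uroplakin genes had open chromatin in both replicates. The 5 genes held 12 regions, of which 9 were shared, 2 were called in replicate 1 only and 1 in replicate 2 only. Of the 9 shared regions, 7 lay over 500 bp from the TSS, and 5 were distal, with a centre over 1000 bp from any TSS. These 5 belonged to 4 genes, all but Upk2, where 43.7% of all genes had at least 1 shared distal region. The genes sit in short intervals: the median span nearest to a member's TSS was 20.2 kb against 45.0 kb over all genes. Pooled over these spans, there were 0.791 shared regions per 10 kb at the members and 0.287 over all genes. The members' figure rests on 9 regions, and genes of like span were not compared. The tallest shared region lay outside the promoter window in both replicates at 4 of the 5 genes, all but Upk3a. This held for 31.8% of the 15916 genes with a shared region, and the measure was chosen after the values were seen.

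**Figure D4:**
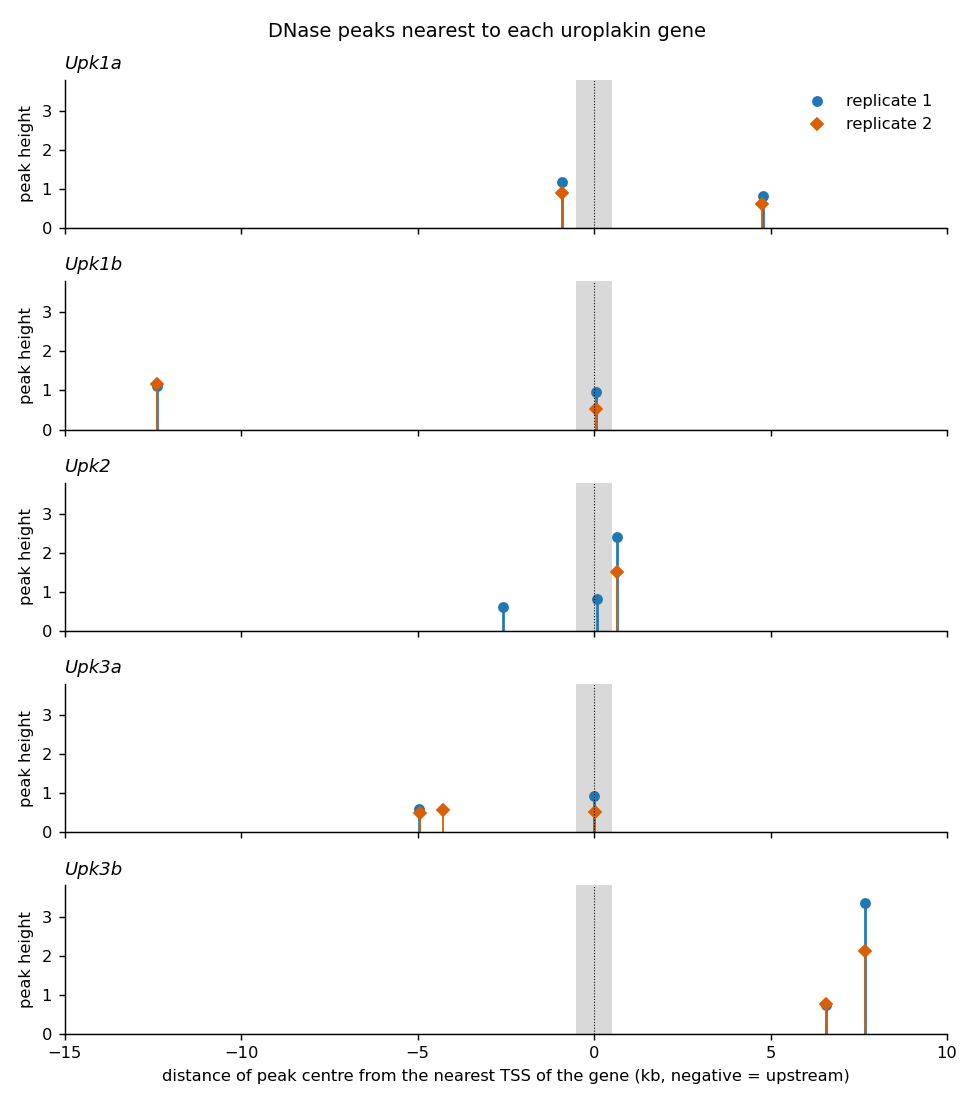
Peaks at the 5 uroplakin genes by distance from the TSS (kb, along the direction of transcription), with height on the vertical axis (deposited signal), the promoter window in grey, circles for replicate 1 and diamonds for replicate 2. The tallest peaks stand at 7.68 kb in Upk3b, 0.65 kb in Upk2, -12.4 kb in Upk1b and -0.91 kb in Upk1a, all in both replicates. In Upk3a the promoter peak is the tallest in replicate 1, and the peak at -4.29 kb in replicate 2.

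Upk1a (ENSMUSG00000006313.5, chr7:30603092-30612847, minus strand, mm10) had 2 shared regions. The taller lay between genes at -0.91 kb, chr7:30613661-30613840, with heights of 1.19 in replicate 1 and 0.901 in replicate 2, a mean of 1.05 ± 0.206 (SD, n = 2). It lay just beyond the promoter window. The second lay in intron 3 of 8 exons at 4.76 kb, chr7:30607991-30608159, with heights of 0.829 and 0.630, a mean of 0.729 ± 0.141. Both had a log2 ratio of -0.40, nearer to the median of all shared regions than the ratios of the Upk1b and Upk3a promoters. The neighbouring gene upstream, Cox6b1, a subunit gene of cytochrome c oxidase, had promoter peaks of 2.15 and 1.49. The next gene downstream, Zbtb32, had none.

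Upk1b (ENSMUSG00000049436.5, chr16:38773184-38800328, minus strand) had its tallest region at -12.4 kb, chr16:38812621-38812780, in an intron of 4930435E12Rik. Its height was 1.13 in replicate 1 (0.989 to 1.28) and 1.16 in replicate 2 (1.03 to 1.30), a mean of 1.14 ± 0.0228 (SD, n = 2). The replicates could not be told apart within counting error there, while at the Upk1b promoter, chr16:38800161-38800400 in the 5′ UTR exon, they stood apart. The log2 ratios were 0.04 and -0.84, or 0.32 and -0.56 relative to the median of all shared regions. The host gene 4930435E12Rik had no promoter peak in either replicate. The neighbour downstream, B4galt4, a galactosyltransferase gene, had 1.75 and 1.13.

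Upk2 (ENSMUSG00000041523.3, chr9:44452715-44454976, minus strand) had 1 shared region, at 0.65 kb in intron 1 of 5 exons, chr9:44454221-44454420. Its height was 2.40 in replicate 1 (2.20 to 2.62) and 1.51 in replicate 2 (1.36 to 1.67), a mean of 1.96 ± 0.632. In replicate 1 it stood above the Upk2 promoter peak of 0.806. A peak of 0.619 at -2.57 kb, chr9:44457474-44457615, was called in replicate 1 only. The neighbours were Bcl9l, a cofactor gene of Wnt signalling, with promoter peaks of 4.20 and 3.08, and Foxr1, with none.

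Upk3a (ENSMUSG00000022435.6, chr15:85017141-85022547, plus strand) was the only member whose promoter, chr15:85017049-85017238, was its tallest shared region in both replicates. The second shared region lay between genes at -4.94 kb, chr15:85012141-85012282, with heights of 0.605 and 0.504, a mean of 0.555 ± 0.0713. In replicate 2 the height of this region lay inside the Poisson interval of the promoter (0.438 to 0.625). A peak of 0.575 at -4.29 kb, chr15:85012796-85012907, was called in replicate 2 only. It was the tallest Upk3a peak of that replicate, within the Poisson interval of the promoter. The neighbours 5031439G07Rik and Fam118a had promoter peaks of 2.55 and 1.76, and of 6.27 and 3.84.

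Upk3b (ENSMUSG00000042985.7, chr5:136038496-136046487, plus strand) held the tallest region of the members, in the 3′ UTR of its last exon at 7.68 kb, chr5:136046081-136046260. The height was 3.34 in replicate 1 (3.10 to 3.60) and 2.11 in replicate 2 (1.93 to 2.31), a mean of 2.73 ± 0.869. Of all shared distal regions, 98.3% were lower in replicate 1 and 97.0% in replicate 2. A second region in the same UTR at 6.56 kb, chr5:136044975-136045140, had heights of 0.745 and 0.763, a mean of 0.754 ± 0.0127. In raw height the replicates differed by far less there. Relative to the median ratio of all shared regions, the log2 ratio was 0.32 at 6.56 kb and -0.38 at 7.68 kb. The taller region lay 8.32 kb from the nearest TSS of the paralogue Upk3bl, so it lay almost as near to that gene. Upstream, Dtx2, a ubiquitin ligase gene, had promoter peaks of 2.81 and 2.00.

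The order of the tallest shared region at each gene was Upk3b, Upk2, then Upk1a and Upk1b, then Upk3a. In replicate 1, Upk3b (3.34) and Upk2 (2.40) had Poisson intervals apart from each other and from the rest. Upk1a (1.19) and Upk1b (1.13) overlapped in replicate 1, and both overlapped Upk3a (0.922) there. In replicate 2 Upk1b (1.16) stood above Upk1a (0.901), but their intervals of 1.03 to 1.30 and 0.784 to 1.03 still overlapped. Upk3a (0.525, 0.438 to 0.625) lay below both in replicate 2, with its interval apart. With 2 replicates, the ranges of mean ± SD of Upk3b (2.73 ± 0.869) and Upk2 (1.96 ± 0.632) overlap. Both regions were lower in replicate 2 by nearly the same log2 ratio, -0.66 and -0.67. Within each replicate, Upk3b was above Upk2 and Upk2 above the rest, with Poisson intervals apart.

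The lowest listed rates give the significance of cutting above the authors' background, not its size. Inside the Upk3b region at 7.68 kb they were 2.80e-23 and 6.90e-14, and inside the Upk2 intron 5.89e-18 and 4.03e-08. The Upk1b region at -12.4 kb had 6.63e-07 and 3.47e-07, and the Upk1a region at -0.91 kb had 6.85e-07 and 0.000919. The first 3 of these regions were in the stricter lists of both replicates. The Upk1a region was in that of replicate 1 only.

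All 9 shared regions held a footprint in each replicate, where 79.2% of all shared regions did. They held 27 footprints in replicate 1 and 23 in replicate 2, and 20 of those in replicate 1 overlapped one in replicate 2. Some of the tall regions held wide footprints. In the Upk3b region at 7.68 kb, the central footprint was 41 bp wide in replicate 1 and 44 bp in replicate 2. At least these widths were reached by 1.49% and 0.334% of all footprints in the respective replicate, and the median width was 10 and 9 bp. The widest in the Upk2 intron was 37 and 31 bp, reached by 2.29% and 2.95%. These shares are over all single footprints, and the widest footprints of other regions of like height were not compared.

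To show what lies in the footprints, sequences are given for the 5 shared regions that touch no UTR. The other 4, among them the tallest, at Upk3b, are described without their letters. The printed ones are read from the RefSeq GRCm38.p6 assembly, the C57BL/6J reference, 5′ to 3′ on the strand of the gene, which is plus for Upk3a and minus for the others. Coordinates are those of the regions above. Capitals mark bases inside footprints of both replicates.
Upk1a at -0.91 kb: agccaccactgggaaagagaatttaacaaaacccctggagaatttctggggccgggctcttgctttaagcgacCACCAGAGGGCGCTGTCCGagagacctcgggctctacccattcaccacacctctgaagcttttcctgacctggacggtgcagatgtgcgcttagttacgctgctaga
Upk1a intron 3: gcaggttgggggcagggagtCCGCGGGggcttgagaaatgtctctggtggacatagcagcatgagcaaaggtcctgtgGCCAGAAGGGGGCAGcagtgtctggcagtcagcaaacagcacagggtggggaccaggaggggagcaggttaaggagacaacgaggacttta
Upk1b at -12.4 kb: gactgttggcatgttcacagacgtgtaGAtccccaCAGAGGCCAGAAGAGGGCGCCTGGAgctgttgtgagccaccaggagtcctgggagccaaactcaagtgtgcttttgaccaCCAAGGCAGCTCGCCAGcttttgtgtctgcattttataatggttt
Upk2 intron 1: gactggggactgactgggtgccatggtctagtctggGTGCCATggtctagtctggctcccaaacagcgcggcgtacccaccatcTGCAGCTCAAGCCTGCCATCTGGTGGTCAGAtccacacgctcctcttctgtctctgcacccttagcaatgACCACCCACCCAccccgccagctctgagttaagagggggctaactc
Upk3a at -4.94 kb: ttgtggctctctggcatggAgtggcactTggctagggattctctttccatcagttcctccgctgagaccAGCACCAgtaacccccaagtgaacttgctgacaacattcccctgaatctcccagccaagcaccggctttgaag

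These sequences were searched for the consensus of CTCF, a zinc-finger protein that binds at chromatin loop anchors and domain borders. The consensus spans 12 bases. Exact matches lay in 2 of the 9 shared regions. At Upk1a it was CCACCAGAGGGC on the strand of the gene, with its centre at -915.5 bp from the TSS, and 12 and 11 of its bases lay in a footprint of replicate 1 and 2. At Upk2 it was CCACCAGATGGC on the opposite strand, with 12 and 12 bases in footprints. Both are proximal regions, of which 2.25% hold an exact match in the central 150 bp. With up to 1 mismatch, a setting added after seeing the data, 4 of the 9 regions matched, which are the first 4 printed. The Upk3a region at -4.94 kb, the 2 Upk3b regions and the promoter regions of Upk1b and Upk3a did not. The further matches were CCAGAAGGGGGC in intron 3 of Upk1a and CCAGAAGAGGGC at -12.4 kb of Upk1b, both on the strand of the gene. All 12 bases of each lay in footprints of both replicates. At this setting 27.4% of shared distal and 8.40% of shared proximal regions match, and 55.8% of the tallest decile of distal regions. The matching distal regions lay below that decile in each replicate. Upk1a intron 3 stood above 61.9% and 54.4% of shared distal regions, and Upk1b at -12.4 kb above 75.5% and 84.5%.

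**Figure D5:**
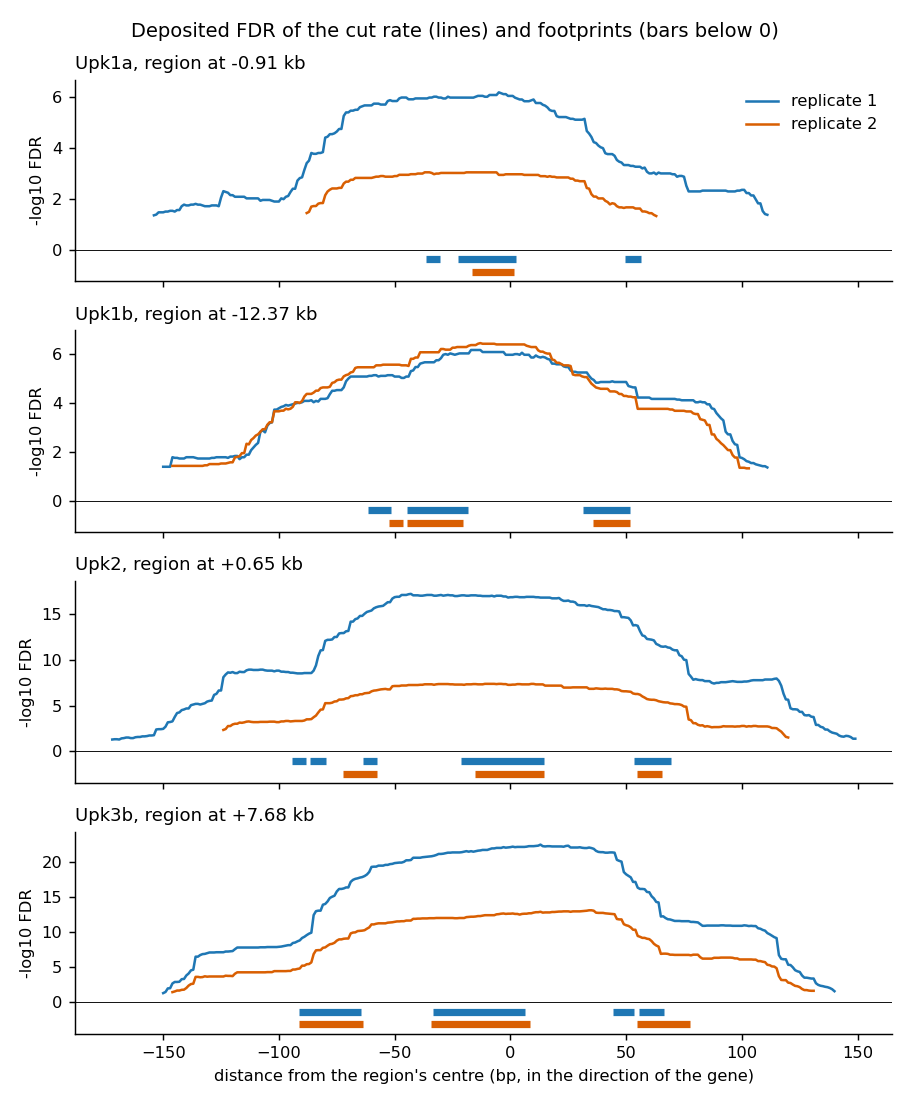
Deposited false discovery rate of cutting (-log10, lines) against distance from the centre of the tallest off-promoter region of 4 genes (bp), with footprints as bars below 0, by replicate. A central footprint is called in both replicates in each region; in the Upk3b region it is 41 and 44 bp wide, and the line of replicate 1 is above that of replicate 2 except at Upk1b, where they nearly coincide.

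Neither Upk3b region held a CTCF match even with 1 mismatch. The region at 7.68 kb held GGGCGG, with 0 bases in footprints of replicate 1 and 6 in those of replicate 2, a motif found in 10.8% of shared distal regions. The region at 6.56 kb held the TEAD motif GGAATG, with 3 and 1 bases in footprints, found in 9.27%. The same motif lay outside footprints in the Upk3a region at -4.94 kb. TATAAA lay outside footprints at -12.4 kb of Upk1b, found in 3.20%. AP-1, KLF (GGGTGTGG), GRHL, GATA, ETS, FOX, DR1, p53, SRF and NFI motifs had no match in the central 150 bp of any of the 9 regions. A match is a run of letters and does not show binding.

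At genes that move and fuse the plaque vesicles, both replicates had promoter peaks at 8 of 9, beside 2 of 5 at the uroplakins and 62.3% over all genes. The tallest were Rab8a (7.90 and 5.94, mean 6.92 ± 1.38), Vps33a (4.76 and 5.02, 4.89 ± 0.182) and Rab11a (4.85 and 3.49, 4.17 ± 0.960). Rab8a and Rab11a are GTPases of apical transport, and Vps33a belongs to a tethering complex. The ninth, Snx31, a sorting nexin that binds uroplakins, named after its values were seen, had 0.433 in replicate 1 and none in replicate 2. The list's median promoter height was 1.17 and 1.01, against 0.922 and 0.530 over the uroplakins with a peak. These lists were not tested against each other.

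Of the transcription factors linked to urothelium, 11 of 15 (73.3%) had promoter peaks in both replicates, near the 62.3% of all genes. The tallest were Irf1 (3.59 and 3.33, mean 3.46 ± 0.189), Rarg (4.37 and 1.13, 2.75 ± 2.29) and Klf5 (3.37 and 1.99, 2.68 ± 0.975). Irf1 is an interferon-response factor, Rarg a retinoic acid receptor and Klf5 a zinc-finger factor of epithelia. Rarg had the widest spread of these. Ehf, an ETS factor, and Trp63, the factor of basal epithelial cells, had none in either replicate.

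Marker genes were read beside the tissue label, against the 62.3% of all genes with promoter peaks in both replicates. The urothelium markers had them at 7 of 13 genes (53.8%), which is not above that share. The tallest were Cdh1 (1.41 and 1.18), Cldn4 (1.41 and 0.926) and Krt19 (0.638 and 1.04). Krt14, the umbrella-cell keratin Krt20, Psca and Shh had none in either replicate. The mesothelium markers had them at 4 of 7 genes (57.1%), also not above the share of all genes. The tallest were Msln (1.53 and 1.55), Aldh1a2 (1.53 and 1.16) and Wt1 (1.11 and 1.00). The part of mesothelium in the regions of Upk1b and Upk3b was not tested. Smooth muscle markers had them at 9 of 10 genes, led by Srf (4.13 and 2.99), Myh11 (2.60 and 2.24) and Des (1.70 and 1.26), a transcription factor, a myosin and the muscle intermediate filament. Fibroblast markers had them at 7 of 8, led by Col1a1 (2.88 and 2.69), Vim (2.16 and 1.99) and Pdgfra (2.13 and 1.68), a collagen, an intermediate filament and a growth factor receptor. The median urothelium marker promoter was 0.754 and 0.613 high. The medians were 1.11 and 0.730 for mesothelium, 1.18 and 0.863 for smooth muscle, and 1.35 and 1.60 for fibroblast markers. All lay below the medians over all promoter peaks, 2.44 and 1.80.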

How the data were processed

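The members, lists and measures were chosen with earlier results of these data known. DNase-seq was available for 2 replicates of 1 group, in assembly mm10, per the deposited descriptions. The authors derived peaks, rates and footprints per sample, without pooling. Their aligner and callers were not given in the sources used here, nor were thresholds. Peak height is the deposited signal, of unstated scale. The deposited rate is a p-value of the false discovery kind (q-value), listed up to 0.05. The deposited footprint p-value is 0.01 throughout, so footprints were not ranked.

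Values come from the looser list unless the stricter is named. Peaks overlapping by at least 1 bp were merged into regions. The tallest peak of each replicate gave a region's height. Regions went to the nearest protein-coding TSS of GENCODE M21 within 100 kb. Motifs were searched in the central 150 bp of regions and in RefSeq promoters. Of each list, the text names the 3 genes with the tallest mean promoter peak and those with none in either replicate. Genes named outside this rule are marked as such. It also names the nearest neighbours of each member and the paralogue. No gene was named by likeness of pattern, which 2 samples of 1 group do not define. Scripts used Python 3.11.15, numpy 2.4.6, pandas 2.3.3, scipy 1.17.1 and matplotlib 3.10.9, and were tested on simulated data. Alternatives were the stricter lists, other windows, distances and overlaps, coding transcripts only, and each replicate alone.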

Additional observations from a re-analysis of the deposited data

How the results depend on the processing

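The number of uroplakin genes with a promoter peak in both replicates, 2, fell to 0 in the stricter lists and rose to 4 with a window of 1000 bp. It stayed at 2 with a window of 250 bp and with protein-coding transcripts only, and ran from 2 to 3 with either replicate alone. The 5 shared distal regions became 2 in the stricter lists and 21 when any distal region within 100 kb counted, whatever its nearest gene. They numbered 6 with either replicate alone, and 5 within 50 kb, with an overlap of 50% or with protein-coding transcripts only. The cause of these shifts was not tested, beyond the fewer peaks and wider reach that the settings bring. Shared regions with the CTCF consensus rose from 2 to 4 with up to 1 mismatch. The trafficking and regulator lists together had promoter peaks in both replicates at 19 of 24 genes, 14 in the stricter lists and 19 to 22 with either replicate alone. Single replicates gave promoter heights from 0.534 to 0.955 at Upk1b and from 0.525 to 0.922 at Upk3a. The stricter lists gave no height in both replicates for these genes. No paired analysis was possible because there is 1 group and no comparison between groups. Depth limits the low calls: a promoter without a peak may be open below what these libraries can show.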

Other observations

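Upk3bl, the paralogue beside Upk3b on chromosome 5, had a similar layout. Its promoter peak was called in replicate 1 only, at a height of 0.559, and 2 shared regions lay off its promoter windows. The taller, at 1.68 kb from a TSS in intron 5 of 6 exons (chr5:136061701-136061900), had heights of 3.05 in replicate 1 and 1.96 in replicate 2, a mean of 2.50 ± 0.771 (SD, n = 2). Of shared distal regions, 97.6% were lower in replicate 1 and 96.1% in replicate 2. The other lay between Upk3b and Upk3bl at -2.77 kb (chr5:136051561-136051900), with 0.838 and 0.988. The tall regions of Upk3b and Upk3bl had log2 ratios between replicates of -0.66 and -0.64.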
